A study of Mus musculus with 5 samples.

Results

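The genes described are 10 subunits of the Polycomb repressive complexes PRC2 and PRC1: Ezh2, Eed, Suz12, Jarid2, Mtf2, Rnf2, Ring1, Pcgf6, Kdm2b and Rybp. They were picked out by gene symbol, through a rule that uses no measured value, with earlier results of these data known. They have 97 of the 135276 deposited transcripts, and 40 of those 97 are annotated as protein coding. For each gene the protein-coding transcript with the highest mean level over the 5 libraries stands for the gene. Ribosome footprints were sequenced from mouse embryonic stem cells (mESCs) in 5 libraries, of which 3 came from standard RIBO-seq and 2 from AHARIBO. The methods name the mESC line used for mouse work as 46C, kept undifferentiated in serum and LIF, and the labels give no treatment that differs between the libraries apart from the isolation. All cells received cycloheximide, which halts elongating ribosomes, and all lysates were digested with 1.3 U RNase I for 45 min. Standard libraries used ribosomes pelleted through sucrose. AHARIBO libraries used ribosomes captured on beads through nascent chains that carry the methionine analogue azidohomoalanine (AHA). The study's AHA protocol depletes cells of methionine, adds AHA and then an anisomycin-based blocker of translation. The methods do not say whether the cells of the standard libraries went through these steps. A figure legend of the study says that standard RIBO-seq was run on the input of AHARIBO, without saying which input belongs to which library. Fragments of 25 to 35 nt were sequenced from both. The labels call the libraries biological replicates, and the p-values measure the spread between them.

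PRC2 and PRC1 modify histone tails at the promoters of developmental regulators and keep those genes silent in stem cells. PRC2 methylates histone H3 at lysine 27. Its core holds the methyltransferase Ezh2, the reader Eed and the scaffold Suz12, and the accessory subunits Jarid2 and Mtf2 help to bring it to CpG islands. PRC1 attaches ubiquitin to histone H2A through the RING proteins Rnf2 (RING1B) and Ring1 (RING1A). Variant forms of PRC1 hold a Pcgf protein such as Pcgf6, the Rybp subunit and, in one form, the CpG-binding protein Kdm2b.

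The sequence around the start codon is shown for the core enzymes and scaffolds, for the paralogues Rnf2 and Ring1, and for Mtf2, Rybp and both forms of Kdm2b. AHA can enter a chain wherever methionine is coded. Each window runs 5′ to 3′ from 6 nt before the start codon to 24 nt from its first base, read from the Gencode transcript on GRCm38. Capitals mark in-frame ATG codons.
Ezh2: ataatcATGggccagactgggaagaaatct
Eed: aggaacATGtccgagagggaagtgtcgact
Suz12: accgcgATGgcgcctcagaagcacggcggt
Mtf2: gaccgaATGagagactctacaggagcaggt
Rnf2: gccgaaATGtctcaggctgtgcagacaaat
Ring1: gtcaccATGacgacgccggcgaatgcacag
Rybp: ccgtccATGaccATGggcgacaagaagagc
Kdm2b, long form: ggggagATGaggcagctgctgcgtgcgatt
Kdm2b, short form: tgagccATGgccATGtccgtgagcgccgag

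Rybp and the short form of Kdm2b carry a second in-frame ATG within the 8 codons shown. The Kozak purine 3 bases before the start codon was present in 7 of the 9 windows and missing in the other 2, Mtf2 and Rybp. Over the highest transcript of 11999 genes, 86.9% had it. The windows lie at chr6:47577637-47577666 (Ezh2, minus strand), chr7:89980502-89980531 (Eed, minus), chr11:79993314-79993343 (Suz12, plus), chr17:34024343-34024372 (Ring1, minus) and chr6:100287254-100287283 (Rybp, minus). The short Kdm2b start lies at chr5:122900179-122900208 on the minus strand. The long one is interrupted by an intron between chr5:122987798 and 122988487. The Mtf2 window is likewise split by an intron, between chr5:108065955 and 108080843 on the plus strand, and that of Rnf2 between chr1:151478600 and 151500722 on the minus strand.

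The libraries held 6403651 to 11150527 deduplicated reads, and 43.3% to 47.7% of reads had been removed as duplicates. Levels are CPM, reads scaled to a common library size with TMM factors, and 3 reads, the most that a count of 0 allows, correspond to 0.262 to 0.476 CPM, for counting error only. The 10 genes held 41 to 1269 reads each. Of the 9 pluripotent stem cell markers, all had footprints, with a summed level of 1205 to 1411 CPM in a library. The endoderm, mesoderm and fibroblast markers summed to at most 4.60, 2.38 and 6.39 CPM. Neural markers summed to 49.2 to 56.1 CPM, most of it Tubb3. Klf4 and Sox2, both pluripotent stem cell markers, were lower in the AHARIBO libraries, with adjusted p = 0.0084 and 0.013 in edgeR, against 2.24% of all transcripts called lower. The other 7 markers of that list did not pass. At an unadjusted p under 0.05, 4 of the 9 were lower (Klf4, Sox2, Pou5f1 and Lin28a), where 18.7% of all transcripts reached that p in either direction.

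All 10 subunits were detected in all 5 libraries, from 5.89 CPM (Ring1) to 111 CPM (Jarid2). Between the library types 1 of the 10, Mtf2, passed an adjusted p of 0.05 in edgeR's quasi-likelihood test, against 4.51% of all 66972 transcripts tested. It was the 1 gene called higher (background 2.27%), and 0 were called lower (background 2.24%, with 0 lower at an unadjusted p under 0.05). At that p 2 of the 10 genes, Mtf2 and Jarid2, were higher, against 18.7% of all transcripts in either direction. Mtf2 also passed when 1 transcript per gene was tested, where 3.98% of genes were called. DESeq2 called 0 of the 9 genes to which it gave an adjusted p, against 1.44% of its transcripts, and 1, Mtf2, had an unadjusted p under 0.05 there. The median log2 fold change (AHARIBO over standard) of the 10 genes was -0.02, from -0.14 to 0.28, and that of all transcripts tested was 0.00222. The groups did not overlap for 5 of the 10 genes. Over all transcripts tested this was so for 33.8%. In 3 of these 5 genes (Ezh2, Suz12 and Mtf2) the AHARIBO libraries were the higher ones, against 17.3% of all transcripts, and in the other 2 (Ring1 and Rybp) they were lower, against 16.5%.

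**Figure D1:**
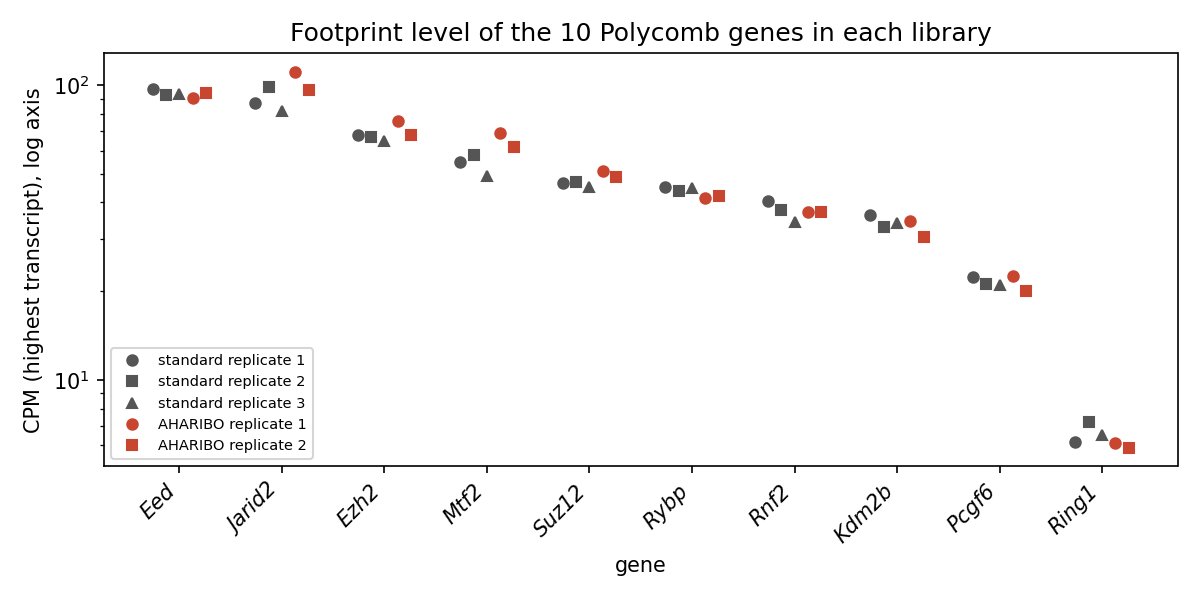
Level of the highest transcript of each gene (CPM, log axis) in every library, with grey points for the 3 standard and red points for the 2 AHARIBO libraries. Points of one gene lie close together beside the differences between genes, from 5.89 to 7.17 CPM for Ring1 and from 90.2 to 97.4 CPM for Eed.

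Among the PRC2 core genes, Eed had the most footprints and Suz12 the fewest in every library. Ezh2 (chr6:47530139-47595030, minus strand, 20 exons) encodes the catalytic subunit. Its level was 67.8, 66.8 and 64.7 CPM in the standard libraries and 75.3 and 68.0 CPM in the AHARIBO libraries. The lowest AHARIBO value lay just above the highest standard value. The log2 fold change was 0.11 ± 0.08 (SE), with a 95% confidence interval of -0.05 to 0.27 and an adjusted p of 0.50 in edgeR. Eed (chr7:89954654-89980983, minus strand, 12 exons), which binds methylated lysine 27, had 97.4, 92.6 and 93.4 CPM in the standard and 90.2 and 93.9 CPM in the AHARIBO libraries. These groups overlapped, and the log2 fold change of -0.04 had an interval of -0.20 to 0.12. Suz12 (chr11:79993106-80034123, plus strand, 16 exons), the scaffold, had 46.7, 47.0 and 45.1 CPM against 51.0 and 48.8 CPM. Both AHARIBO values were higher, the log2 fold change was 0.11 ± 0.08 (SE), and it did not pass (adjusted p = 0.520, edgeR).

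The accessory PRC2 genes showed the largest differences of the 10. Mtf2 (chr5:108065742-108109004, plus strand, 15 exons), a Polycomb-like protein that binds CpG-rich DNA, had 54.7, 57.9 and 49.0 CPM in the standard and 69.0 and 61.9 CPM in the AHARIBO libraries. Both AHARIBO libraries exceeded every standard library. Mtf2 rose by a log2 fold change of 0.28 ± 0.08 (SE, 95% interval 0.11 to 0.44), a 1.21-fold difference with an adjusted p of 0.046 in edgeR. The call was lost in DESeq2 (adjusted p = 0.238), with DESeq2's size factors in edgeR (0.061), with at least 10 counts in 2 libraries (0.051), with the replicate block (0.289), with duplicates kept (0.066), with coding transcripts summed (0.266) and without AHARIBO replicate 1 (0.520), standard replicate 1 (0.164) or standard replicate 3 (0.177). Under the alternatives the adjusted p ran from 0.017 to 0.520, while the log2 fold change stayed between 0.19 and 0.38. The other coding transcripts of Mtf2 did not pass, and its 5 transcripts ranged from 0.05 to 0.28. Next to the highest came a form of 1968 nt that lacks most of the 3′ UTR, with a log2 fold change of 0.24 and an adjusted p of 0.085 in edgeR. Jarid2 (chr13:44731271-44921643, plus strand, 18 exons), a JmjC-family protein without demethylase activity, had 86.8, 98.7 and 81.7 CPM against 111 and 96.6 CPM. The second AHARIBO library lay below the second standard library. The log2 fold change of Jarid2 was 0.22 ± 0.08 (SE, interval 0.05 to 0.38) and did not pass (unadjusted p = 0.012, adjusted p = 0.126, edgeR). It passed without AHARIBO replicate 2 (adjusted p = 0.029) and without standard replicate 2 (0.044).

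**Figure D2:**
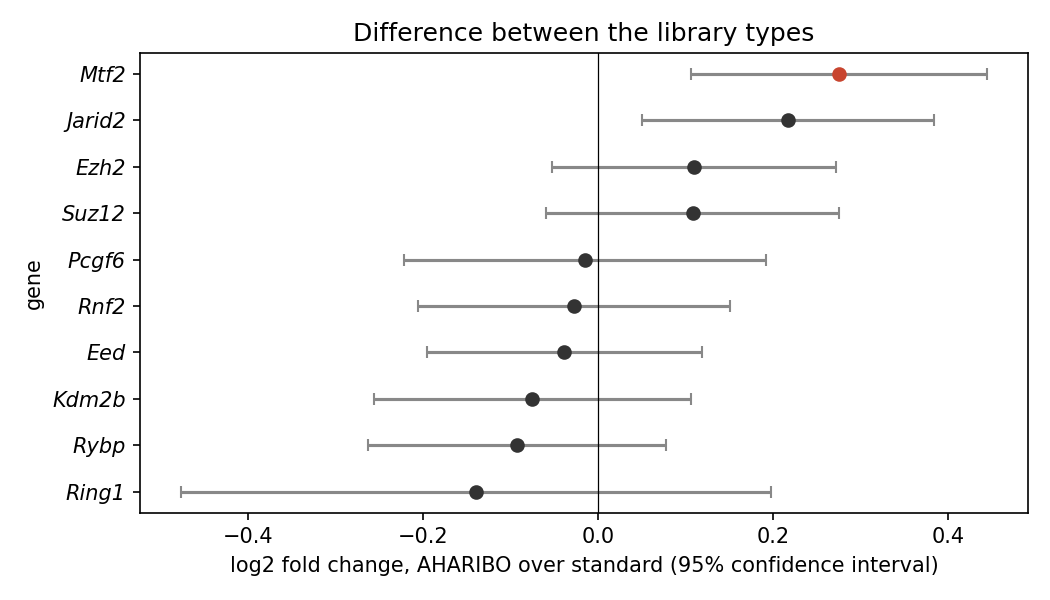
Log2 fold change of each gene, AHARIBO over standard, with its 95% confidence interval from edgeR; the red point passed an adjusted p of 0.05. Mtf2 and Jarid2 are the genes whose intervals lie above 0, and those of the other 8 include 0.

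The 5 PRC1 genes did not pass in either direction, and 0 of them had an unadjusted p under 0.05 in edgeR. Rnf2 (chr1:151469406-151500955, minus strand, 7 exons), the main H2A ubiquitin ligase of stem cells, had 40.6, 37.7 and 34.4 CPM in the standard and 37.1 and 37.0 CPM in the AHARIBO libraries. The AHARIBO values lay inside the standard range, and the interval of the log2 fold change was -0.21 to 0.15. Ring1 (chr17:34020792-34024680, minus strand, 7 exons), its paralogue, had 6.16, 7.17 and 6.50 CPM against 6.12 and 5.89 CPM. Ring1 rested on 41 to 70 reads a library, and its interval was the widest of the 10, from -0.48 to 0.20. Pcgf6 (chr19:47033617-47050904, minus strand, 10 exons), the Pcgf protein of the Max and Mga form of PRC1, had 22.4, 21.2 and 20.9 CPM against 22.5 and 20.1 CPM. The groups overlapped and the interval was -0.22 to 0.19.

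Kdm2b (chr5:122870681-122988533, minus strand, 23 exons), which binds unmethylated CpG islands, had 36.3, 33.1 and 33.9 CPM in the standard and 34.6 and 30.7 CPM in the AHARIBO libraries. The groups overlapped, with an interval of -0.26 to 0.11. Rybp (chr6:100228565-100287485, minus strand, 5 exons), which stimulates the ligase activity of variant PRC1, had 45.0, 43.7 and 44.9 CPM against 41.5 and 42.0 CPM. Both AHARIBO values were lower, the log2 fold change was -0.09 ± 0.08 (SE), and the adjusted p was 0.606 in edgeR. Part of the Rybp and Kdm2b reads cannot be assigned to one gene. Of all 30-nt windows of the Rybp coding sequence, 78.1% also occur in a transcript of another gene, chiefly the processed pseudogene Rybp-ps. Rybp-ps was listed with 153 to 236 reads, 46.3% to 54.1% as many as Rybp. For Kdm2b the share of such windows was 17.6%, chiefly in the gene Gm12397. It was 2.51% for Mtf2, 1.87% for Suz12 and 0 for the other 6 genes. Counting transcripts of the same gene as well, 41.6% of the Mtf2 windows occur in over 10 deposited transcripts, the largest such share of the 10 genes.

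To set genes beside each other, CPM were divided by length. Footprint density per kb of transcript was highest for Eed at 45.2 ± 1.25 CPM per kb (SD, n = 5 libraries) and lowest for Ring1 at 3.13 ± 0.25, a ratio of 14.4. Ezh2 was the second at 24.6 ± 1.44 CPM per kb. Jarid2 (15.8), Mtf2 (14.4), Rnf2 (11.8), Suz12 (10.9), Pcgf6 (10.2) and Rybp (9.64) followed, and each of these neighbours overlapped in range, although their order was kept in all 5 libraries. Kdm2b (6.75) and Ring1 stood below them without overlap. Among 12361 genes with a tested coding transcript the median was 3.25 CPM per kb. Eed lay at percentile 95.4, Ezh2 at percentile 90.6 and Ring1 at percentile 49.1.

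Per kb of coding sequence 4 of the 10 genes kept their rank. Eed stayed first at 70.7 ± 1.95 CPM per coding kb (SD, n = 5), and Rybp moved from the eighth place to the second at 63.5 ± 2.38. Rybp has 684 coding nt in a transcript of 4503 nt, so that this scale divides by a much shorter stretch. Rnf2 (37.1), Mtf2 (32.9), Ezh2 (30.6) and Jarid2 (25.7) followed with overlapping neighbours, then Suz12 (21.5) and Pcgf6 (20.2), which also overlapped. Kdm2b (8.63) and Ring1 (5.23) were the lowest on both scales. Within PRC2, the density of Eed was 2.03 to 2.44 times that of Ezh2 per coding kb, and that of Ezh2 was 1.38 to 1.47 times that of Suz12, in every library.

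**Figure D3:**
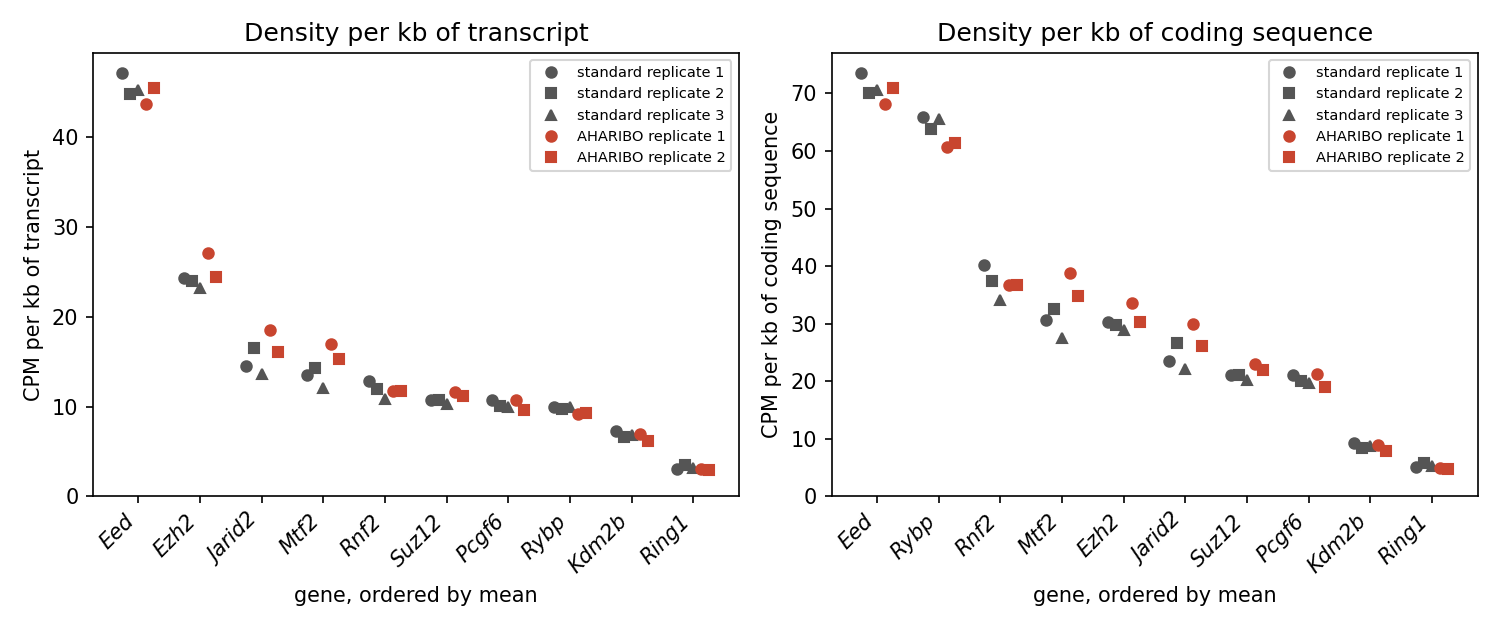
Footprint density in CPM per kb of transcript (left) and per kb of coding sequence (right), 1 point per library, genes ordered by their mean. Eed is first and Kdm2b and Ring1 are last on both scales, while Rybp moves from the eighth place to the second.

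Subunits of 5 families were set beside their relatives within the same library, per coding kb. These pairs were chosen after the values had been seen. Ezh2 exceeded Ezh1, the other PRC2 methyltransferase, by 7.43 to 8.69 times. Rnf2 exceeded Ring1 by 6.36 to 7.95 times. Mtf2 exceeded Phf19, a second Polycomb-like protein, by 6.69 to 9.38 times, and the third, Phf1, had at most 1.75 CPM in a library. Of the Mtf2 coding windows 41.6% occur in over 10 deposited transcripts, and Phf19 and Phf1 were not checked for this. Rybp exceeded its homologue Yaf2 by 13.7 to 22.0 times, with the Rybp-ps reads unresolved. Ezh2, Mtf2, Rnf2 and Rybp thus had the highest footprint density of their families as listed here, in all 5 libraries.

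The Pcgf family differed from this. Pcgf2 (MEL18), a subunit of canonical PRC1, was above Pcgf6 by 1.02 to 1.23 times per coding kb, again in all 5 libraries, with overlapping ranges. Pcgf6 exceeded Pcgf3 by 1.58 to 1.91 times and Pcgf1 by 2.27 to 2.77 times. It exceeded Pcgf5 by 4.44 to 5.04 times and Bmi1, the Pcgf4 protein, by 15.1 to 36.9 times. Bmi1 had at most 1.27 CPM. Kdm2b and Pcgf1, partners in one PRC1 form, were within 0.94 to 1.16 times of each other.

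**Figure D4:**
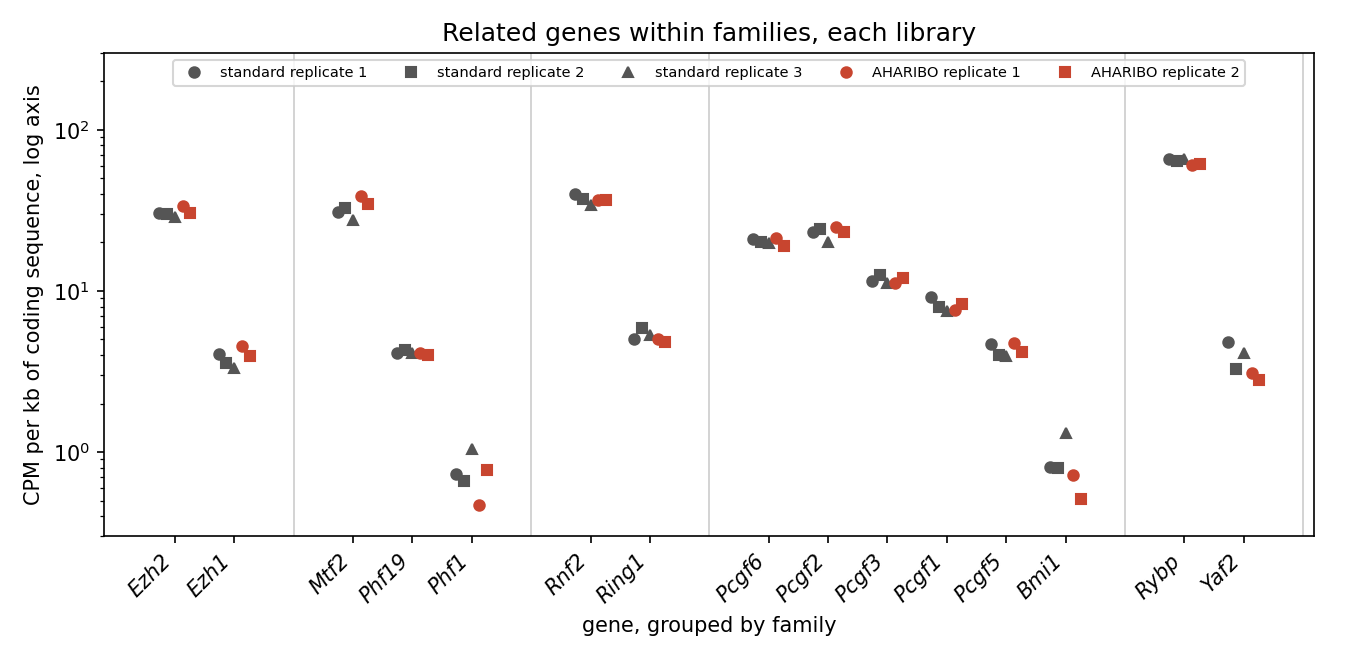
CPM per kb of coding sequence (log axis) for the genes of 5 families, 1 point per library. Ezh2, Mtf2, Rnf2 and Rybp lie above every relative shown, and Pcgf2 lies 1.02 to 1.23 times above Pcgf6.

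The deposited table also lists partial transcripts, which show where along a gene the footprints fell. Read counts here are descriptions of single annotated fragments. In 12 pairs, all from Kdm2b and Mtf2, one transcript lay within another, and the longer one held at least as many reads in 60 of 60 comparisons. The methods do not say how reads that match several transcripts were counted, so transcripts were not treated as holding separate reads. For Jarid2, a transcript of 5019 nt is 884 nt longer than one of 4135 nt with the same coding sequence, mostly through its 3′ UTR. It held 1, 4 and 2 reads more in the standard and 14 and 13 more in the AHARIBO libraries, on top of 428 to 1089. These 2 transcripts also start at different positions, chr13:44730823 and chr13:44730774. The differences are therefore net values and cannot be assigned to the 3′ UTR. The highest Jarid2 transcript, 978 nt longer again, exceeded the one of 5019 nt by 92, 102 and 85 reads in the standard and by 166 and 151 in the AHARIBO libraries, 11.4% to 16.5% of its total. They differ in the leader, before position 443 of the highest transcript, and in the 3′ UTR, after position 5349, and these reads cannot be divided between both ends. The full Mtf2 transcript exceeded the form of 1968 nt by 2092 nt. This form shares 1608 of the 1779 coding nt, so the difference holds coding sequence beside the 3′ UTR, and the added reads cannot be divided between them. They were 29, 39 and 19 in the standard libraries, 5.94% to 7.43% of the total, and 74 and 48 in the AHARIBO libraries, 7.74% to 9.38%. As a share of the longer transcript's reads, the difference was higher in both AHARIBO libraries than in any standard library for Mtf2. The same held for the first Jarid2 pair (0.146% to 0.505% against 1.27% to 1.59%), which rests on differences of 1 to 14 reads. The groups overlapped for the second Jarid2 pair. They also overlapped for the long and short Kdm2b transcripts (7% to 14.0% against 11.4% to 14.4%). The share of all such pairs without overlap was not computed. These differences were not tested. A Jarid2 leader fragment of 344 nt, of which 69 nt are coding and the rest lies before the start codon, held 72, 85 and 53 reads in the standard and 94 and 76 in the AHARIBO libraries. Its density was 1.07 to 1.57 times that of a fragment of 3212 nt within the coding part of Jarid2. The reads of the leader fragment cannot be divided between the leader itself and the 69 coding nt.

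Kdm2b has a long form, with the JmjC demethylase domain at its amino-terminal end, and a short form that starts downstream of it. The 5′ fragment of 1598 nt, which covers most of the coding part that the short form lacks, held 59, 50 and 37 reads in the standard and 75 and 40 in the AHARIBO libraries. An inner coding fragment of 888 nt, farther along the transcript, held 100, 74 and 72 against 104 and 88 reads. Per kb the inner fragment was 2.50 to 3.96 times denser, and it was denser in all 5 libraries. The short transcript as a whole held 184 to 339 reads, and the long transcript exceeded it by 21 to 57 reads, 7% to 14.4% of the long transcript's total. The long transcript shares 3312 of the 3532 nt of the short one, so this is a net difference and not the share of the long form alone. In every library it was smaller than the number of reads on the 5′ fragment. Of the 30-nt windows under the 5′ fragment, 21.6% occur in over 10 deposited transcripts, and 2.17% of those under the inner fragment do. The methods name STAR at default settings, which drop a read that matches over 10 places. The part of such reads in the difference between the fragments was not tested.

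**Figure D5:**
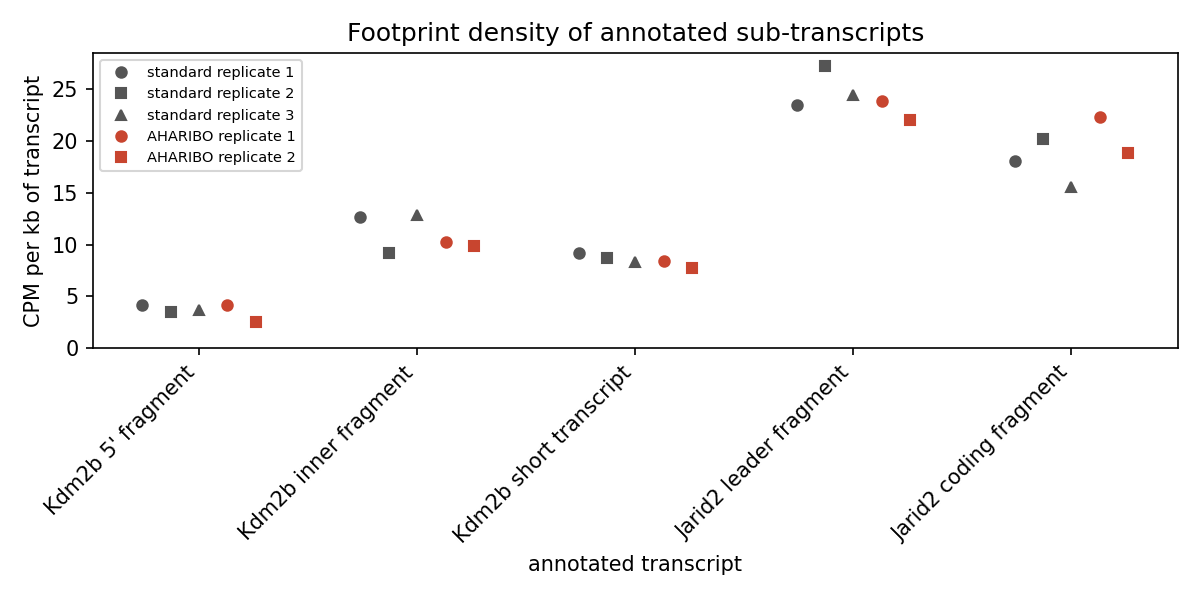
Footprint density (CPM per kb) of annotated partial transcripts of Kdm2b and Jarid2, 1 point per library. The Kdm2b 5′ fragment lies at 2.50 to 4.14 CPM per kb, below the inner fragment at 9.20 to 12.9, and the Jarid2 leader fragment lies at 22.1 to 27.3.

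AHARIBO captures chains by their methionine positions, so the methionine codons of the 10 coding sequences were counted. The median over 12215 genes was 2.13 methionine codons per 100 codons, and 6 of the 10 genes lay above it. Suz12 had the most per 100 codons, 20 in 741 codons or 2.70. Rybp had the fewest, 3 in 228 codons or 1.32, at percentile 16.0. Mtf2 had 10 in 593 codons (1.69, percentile 30.5) and Jarid2 23 in 1234 (1.86, percentile 38.2). Whether methionine content goes with the fold change was not tested. After the start codon the next methionine came at codon 3 in Rybp and not until codon 173 in Jarid2. The codon after the start coded for a small residue in 7 of the 10 genes, against 60.9% of all genes. Methionine aminopeptidases commonly remove the first methionine before such a residue.

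Among the other Polycomb genes, Mga passed. Mga, the large DNA-binding partner of Pcgf6 and Max, rose by a log2 fold change of 0.38 ± 0.08 (SE, adjusted p = 0.0037, edgeR). Its levels were 68.8, 67.7 and 58.5 CPM in the standard and 89.9 and 79.8 CPM in the AHARIBO libraries, without overlap. The call was lost without AHARIBO replicate 1, with the replicate block and with coding transcripts summed. Of the 23 other PRC1 genes 21 were tested, with 1 higher and 0 lower, against 2.27% and 2.24% of all transcripts. At an unadjusted p under 0.05 there were 5 of the 21, against 18.7% of all transcripts: Mga, Usp7, Cbx7 and Scmh1 with positive and E2f6 with a negative log2 fold change. The 2 densest were Phc1, a polyhomeotic subunit, at 80.7 CPM per kb, and Usp7, a deubiquitinase found with PRC1, at 20.5. Phc1 had 321 to 333 CPM in the standard libraries and 291 and 300 CPM in the AHARIBO libraries, and its log2 fold change of -0.15 did not pass (adjusted p = 0.284, edgeR). Of the 7 other PRC2 genes, 7 were tested and 0 passed. In that list 0 had an unadjusted p below 0.05. The densest were the histone-binding protein Rbbp7 at 41.0 and the elongin-binding Epop at 31.5 CPM per kb of transcript. Over all the Polycomb lists beyond the 10 genes, edgeR tested 38 genes and DESeq2 gave an adjusted p to 16, of which it called 1, Mga.

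The developmental regulators that PRC2 is known to hold silent were near the limit of detection. Of 19 such genes, 15 stayed below 1 CPM in every library and 11 had at least 1 library with 0 reads. The largest count was 18 reads, and the highest level 2.22 CPM (Sox17, standard replicate 3). The densest were Eomes at 0.44 and Sox17 at 0.41 CPM per kb, below every subunit of the complexes described above. In bulk cells, a low level in all cells and a higher level in a few cells cannot be told apart. The 4 that were tested (Pax6, Gata4, Sox17 and Eomes) did not pass, with 0 at an unadjusted p under 0.05 in edgeR.

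The 3 genes outside these lists nearest in level to Rnf2, the gene at the fifth density rank, were Ptpa, Chmp1a and Nrm, with 12.0, 11.5 and 11.5 CPM per kb of transcript. Likeness was the Euclidean distance between log2 densities over the 5 libraries, which was 0.09, 0.11 and 0.12 among 12332 genes.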

How the data were processed

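Ribosome footprints of mESCs came from 3 standard and 2 AHARIBO libraries, grouped by the labels. The authors deposited read counts for each transcript, with duplicates removed or kept, after trimming with Trimmomatic 0.36, removing rRNA and tRNA reads, aligning with STAR (default settings) to the transcripts of Gencode M17 and discarding antisense reads. The submitters' processing notes name GRCm38.p6. The methods mention no molecular identifiers, and without them deduplication can also drop separate fragments that share both ends. Counts without duplicates were used, and 0 columns were left unused.

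Transcripts were matched to Gencode M21 by identifier, 99.76% of 135276. CPM used TMM factors over all transcripts. Transcripts reaching 1 CPM in any library were tested with edgeR 4.0.16 (R 4.3.3, limma 3.58.1) by its quasi-likelihood test, AHARIBO over standard, with no block, Benjamini-Hochberg adjustment over all 66972 transcripts and a threshold of 0.05. SE are approximate, from the F statistic. DESeq2 1.42.0 was an alternative. On simulated data edgeR recovered 99% of 200 changed among 65075 transcripts (98% of 2-fold and 100% of 4-fold changes) and called 10 unchanged ones. The changed transcripts were drawn above a minimum CPM, with a common dispersion and independent counts. The simulation therefore does not cover changes below 2-fold, such as those of Mtf2 and Mga, or transcripts that share reads. Windows of 30 nt were compared among all deposited transcripts, for the 10 genes only. For Pcgf6 the transcript version differs from that of M21.

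The genes, lists and rules were chosen with earlier results of these data known. Genes named are the 10, other Polycomb genes that passed or were the 2 densest of their list, and the 3 nearest to the fifth-ranked gene. The relatives in the family comparison, the partial transcripts, and the markers, target genes and genes with unadjusted p named singly fall outside that rule and were chosen after their values were seen.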

Additional observations from a re-analysis of the deposited data

How the results depend on the processing

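Mtf2 was the 1 subunit called and Mga the 1 other Polycomb gene. With DESeq2, with DESeq2's size factors in edgeR, with at least 10 counts in 2 libraries, and with duplicates kept, 0 subunits passed, and with coding transcripts summed or with the replicate block 0 subunits and 0 other genes passed. Leaving out 1 library at a time gave 0 to 2 subunits and 0 to 2 other genes. Both were called, with Jarid2 and Usp7 beside them, without standard replicate 2 or AHARIBO replicate 2. The call of Mtf2 was lost without the other 3 libraries, and that of Mga without AHARIBO replicate 1. Leaving out an AHARIBO library leaves 1, assumed to vary like the standard ones. Calls over all transcripts numbered 3021, and 272 with DESeq2, 1792 with the block, 28 of 14504 genes with transcripts summed, 921 of 23162 with 1 transcript per gene, and 510 to 3829 without 1 library. DESeq2 gave no adjusted p for Ring1. With 2 AHARIBO libraries, whose deviations from their mean mirror each other, the data cannot show whether same-numbered libraries belong together (r = 0.04 and -0.09), and the block in effect sets aside standard replicate 3. The cause of these losses was not tested.

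Of 149 log2 fold changes of single genes under the alternatives, 127 kept direction and side of the threshold, 9 lost the call (all Mtf2), 2 gained it (Jarid2) and 11 turned sign. None of the 11 was called. With duplicates kept these were Eed 0.035, Suz12 -0.013 and Rnf2 0.045. By library size Rnf2 was 0.0066 and Pcgf6 0.020, and with 1 transcript per gene 0.0026 and 0.015. Leaving out 1 library at a time gave -0.078 to 0.032 for Rnf2, -0.10 to 0.063 for Pcgf6 and -0.17 to 0.0094 for Kdm2b.

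The share of reads on the 10 highest transcripts was 0.0490% in the standard and 0.0529% in the AHARIBO libraries. It was 0.143% and 0.155% with all coding transcripts summed, which counts any shared reads repeatedly, and 0.0345% and 0.0362% with duplicates kept. Density rank was kept by 4 of 10 genes per coding kb and by 8 with duplicates kept. Depth limits Ring1 and the silent regulators most.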

Other observations

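Genes that oppose the Polycomb marks were also translated. The H3K27 demethylases Kdm6a and Kdm6b, which remove the PRC2 mark, had 5.23 and 3.81 CPM per kb of transcript, and 0 of the 2 passed in edgeR, with 0 at an unadjusted p under 0.05. Their levels were 27.6 to 35.3 CPM and 22.9 to 28.3 CPM. In the PR-DUB complex, which removes ubiquitin from H2A, Asxl1 was the densest at 10.9 CPM per kb and the deubiquitinase Bap1 followed at 4.55. Of its 4 genes 4 were tested and 0 passed, with 0 at an unadjusted p under 0.05, and the median log2 fold change was 0.16. DESeq2 gave an adjusted p to 4 of these 6 genes (Bap1, Asxl1, Kdm6a and Kdm6b) and called 0, with 0 at an unadjusted p under 0.05.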
